A study of Drosophila melanogaster with 12 samples.

Results

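Dark and light phases of the day were compared in miRNAs bound to AGO1 in Drosophila heads. The dark group was the 6 libraries collected at ZT15 and ZT21 and the light group the 6 collected at ZT3 and ZT9, each phase with 2 libraries at each of 3 temperatures (18, 25 and 29°C), so that all 12 of the 12 samples entered. ZT (Zeitgeber time) counts hours from lights on, with lights off at ZT12. Every library came from heads of Canton-S, a wild-type strain without transgene or mutation, pooled before an antibody pulled down AGO1, and the small RNA that came with it was sequenced. The flies of a library were kept at its temperature, and the labels give neither age nor sex. Each combination of temperature and time point had 1 library, the labels do not say whether libraries came from separate cultures, and p-values therefore measure only the spread between these libraries, which may be technical. The study asked how temperature sets the miRNA control of the clock gene timeless, and the time points were spread over the day. Here they were split by phase to ask whether the AGO1-bound pool differed between night and day.

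A miRNA is cut from a hairpin precursor, and either arm of the hairpin (5p or 3p) can be loaded into AGO1, which then represses mRNAs that pair with the miRNA. The circadian clock of the fly is a loop in which the proteins PERIOD and TIMELESS shut off their own transcription once per day, and miRNAs act on it at several points. In Drosophila, bantam targets the activator Clock, let-7 targets the repressor clockwork orange, miR-276a acts on timeless, and the mir-279 and mir-124 hairpins are needed for normal rhythms of activity. Only a few miRNAs are known to cycle in fly heads, and a mature miRNA held by AGO1 is a stable molecule whose level can stay flat while its precursor cycles. Light is itself a signal in this tissue, since much of the head is retina and the level of several neuronal miRNAs follows illumination in other animals.

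No miRNA passed the threshold between the phases in the main fit. In limma with temperature as covariate, 0 of the 235 miRNA rows with enough reads had an adjusted p under 0.05 (0.0% of those tested), and 0 also passed the study's limit of an absolute log2 change over 1 (0.0%). At an unadjusted p under 0.05 there were 5 (2.13%), of which 3 were higher in the dark (1.28%: miR-219-3p, miR-283-3p and miR-982-5p) and 2 lower (0.851%: miR-969-3p and miR-210-3p). The quasi-likelihood test of edgeR on the recovered reads called 0 and had 5 at an unadjusted p under 0.05, and DESeq2 called miR-969-3p alone and also had 5. In 0 of 235 rows (0.0%) did the 6 dark libraries lie wholly above or below the 6 light ones. In the same fit, temperature had an adjusted p under 0.05 for 82 rows (34.9%).

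The fit bounds the difference averaged over the 3 temperatures and both time points of a phase, not that at a single temperature or time point. The median absolute difference was 0.09 on the log2 scale and the median signed difference 0.01, with 126 rows higher and 109 lower in the dark. The 95% confidence interval lay within 2-fold in both directions for 210 of the 235 rows (89.4%) and within 1.5-fold for 155 (66.0%). Among the 100 rows with a mean of at least 1000 reads, all 100 intervals lay within 2-fold and 95 within 1.5-fold. Of the 25 rows with wider intervals, 8 had a mean of at least 100 reads. Phase accounted for a median of 1.96% of a row's variance in log2 values, temperature for 43.8% and the rest, which includes the time points within a phase, for 51.2%. For 5 rows phase took over 25%: miR-210-3p with 57.0%, miR-283-3p with 38.5%, miR-969-3p with 27.9%, miR-980-5p with 26.5% and miR-956-3p with 25.5%.

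**Figure D1:**
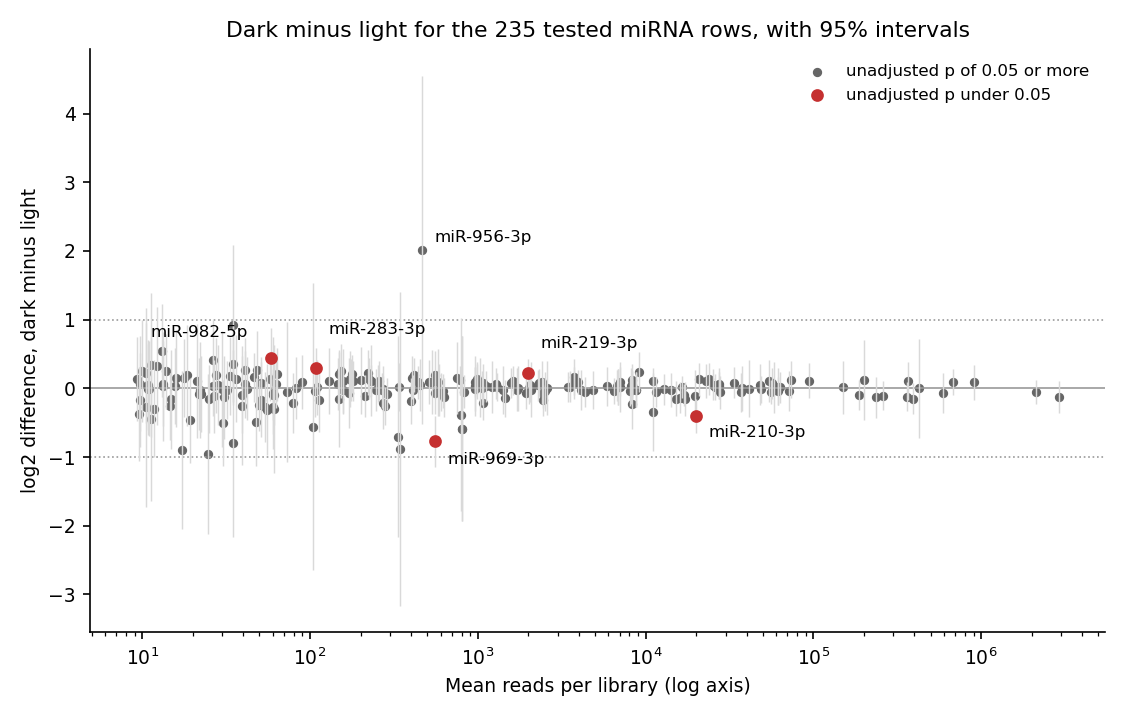
Difference of dark minus light on the log2 scale for each of the 235 tested rows (points, with 95% confidence intervals as grey lines) against its mean reads per library on a log axis, from limma with temperature as covariate. The 5 rows at an unadjusted p under 0.05 are red, dotted lines mark 2-fold, and only miR-956-3p lies beyond them, with a wide interval.

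The miRNA with the smallest p was miR-969-3p, whose hairpin lies on chromosome X at 18124357 to 18124450, plus strand (annotation of build BDGP6.54, in which no other gene overlaps it). At 18°C it was at 831 (ZT3) and 1310 (ZT9) normalised reads in the light and at 748 (ZT15) and 484 (ZT21) in the dark. At 25°C the values were 518 and 765 in the light and 331 and 269 in the dark, and at 29°C they were 324 and 408 against 260 and 278. Both dark libraries thus lay below both light ones at each temperature, while over all temperatures the phases overlapped, since the level also depended on temperature (adjusted p = 0.00079 for temperature in limma). The dark mean was 395 ± 192 and the light mean 693 ± 362 (SD, n = 6 each), a log2 difference of -0.77 (SE 0.17, 95% interval -1.14 to -0.40), or 1.70-fold higher in the light. Within temperatures the difference was -0.79 (18°C), -1.07 (25°C) and -0.43 (29°C). It missed the threshold in limma (adjusted p = 0.141) and in edgeR (adjusted p = 0.0756) and passed it in DESeq2 (adjusted p = 0.00741) and, narrowly, in limma with TMM scaling (adjusted p = 0.0497). Over the 33 alternative settings its adjusted p ranged from 0.00741 to 0.997 and the difference stayed negative in all 33. Reads per library ran from 109, in the 29°C ZT21 library, to 943.

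The next was miR-210-3p. In flies the mir-210 hairpin is expressed in photoreceptors and other neurons, is needed for the upkeep of the retina and, when its level is altered, changes the timing of daily activity. At 18°C miR-210-3p was at 23670 and 24208 normalised reads in the light and at 19080 and 14906 in the dark. At 25°C it was at 18357 and 22252 in the light and at 13350 and 19795 in the dark, and at 29°C at 23104 and 20300 against 15736 and 17709. Only the 25°C ZT21 library crossed into the light range of its temperature. The dark mean was 16763 ± 2514 and the light mean 21982 ± 2241 (SD, n = 6 each), with a log2 difference of -0.40 (SE 0.11, 95% interval -0.64 to -0.15; limma, adjusted p = 0.450), or 1.32-fold higher in the light. Unlike miR-969-3p it showed little dependence on temperature, which held 5.30% of its variance (adjusted p = 0.69 for temperature). Within temperatures it was -0.51 (18°C), -0.31 (25°C) and -0.38 (29°C), and it was negative in all 33 alternatives, with adjusted p from 0.0632 to 0.998 and no call.

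These 2 hairpins are neighbours. The mir-210 hairpin lies on chromosome X at 18128219 to 18128318 (BDGP6.54), on the same strand as mir-969 and with 3768 bases between them. No other hairpin of the table lay within 50000 bases on either side. There were 30 pairs of neighbouring hairpins on the same strand with at most 10000 bases between them. The more abundant arms differed in the same direction in 22 of these pairs, and both were lower in the dark in 15. The pairs were not independent, since consecutive pairs shared hairpins and some pairs held copies of the same mature miRNA. No share for unlinked hairpins was computed, so these counts do not show an effect of position. The pair of mir-969 and mir-210 was the one in which both members had an unadjusted p under 0.05. It was looked at because its members had the smallest p in this fit, so this is no separate evidence.

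The opposite arms of these hairpins did not follow in the same way. For miR-210-5p the light values at ZT3 and ZT9 were 24490 and 25930 (18°C), 7698 and 7997 (25°C) and 4833 and 5166 (29°C). In the dark it was at 15117, 4430 and 3671 at ZT15 and at 11590, 10175 and 8018 at ZT21, in order of temperature. Its ZT15 library was therefore below both light libraries at every temperature, and its ZT21 library was below them at 18°C and above them at 25°C and 29°C. Over both dark time points the log2 difference was -0.35 (95% interval -0.91 to 0.22; limma, adjusted p = 0.995). Without the 3 ZT21 libraries it was -0.67 and the only call of that setting (adjusted p = 0.00225). The arm miR-969-5p was rarer, at 34.7 to 91.3 in the light and 36.9 to 84.2 in the dark, with a log2 difference of -0.09 (95% interval -0.53 to 0.35, adjusted p = 0.995). Both opposite arms were picked for description after their values were seen.

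**Figure D2:**
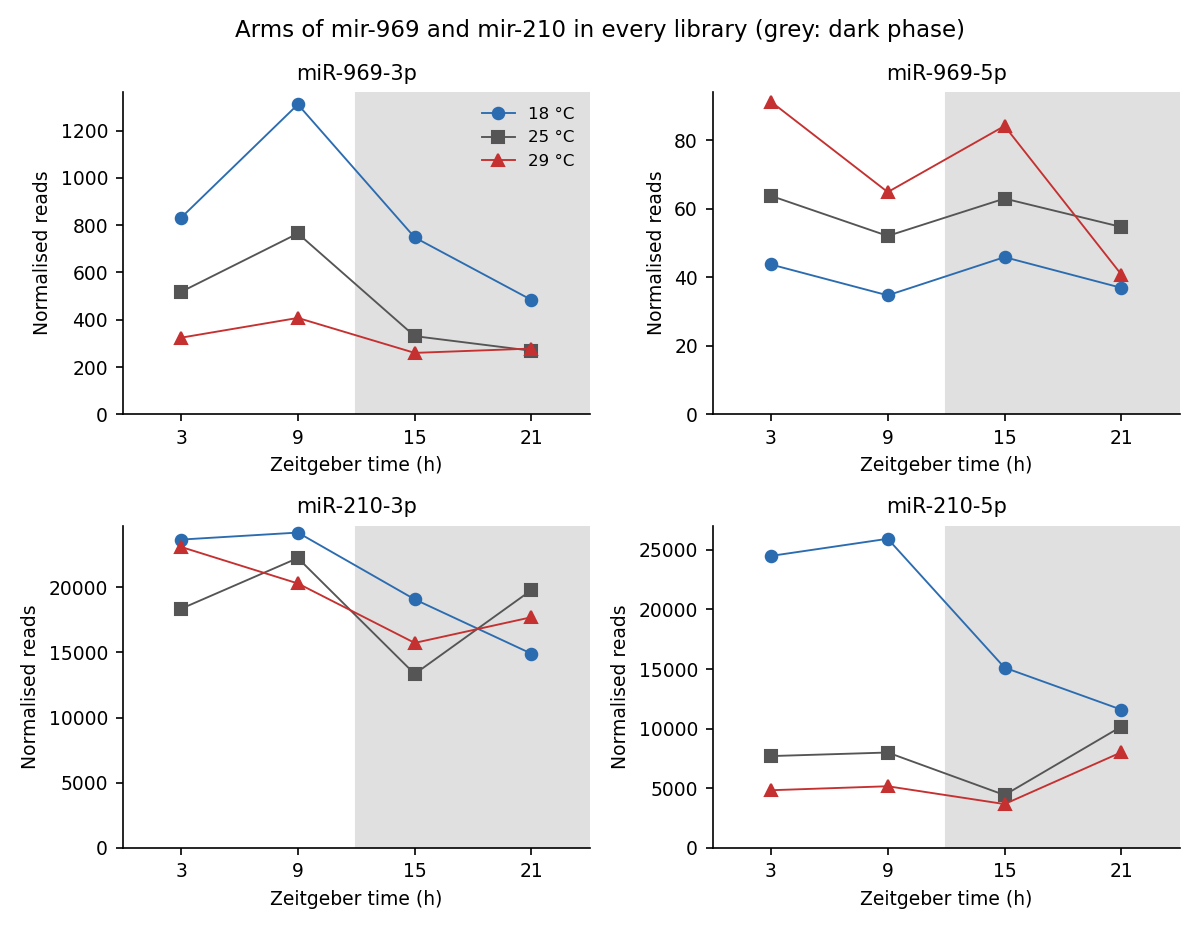
Normalised reads of the 3p and 5p arms of mir-969 and mir-210 in every library, against Zeitgeber time in hours, with 1 line per temperature and the dark phase in grey. miR-969-3p sits lower in the dark at each temperature, miR-210-3p does so except at 25°C ZT21 (19795), and miR-210-5p is lowest at ZT15 at 25°C (4430) and 29°C (3671) and higher at ZT21.

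The 3 miRNAs higher in the dark at an unadjusted p under 0.05 differed by small amounts. miR-219-3p comes from a hairpin whose mammalian counterpart is under control of the clock in the mouse brain, and it lies on chromosome 3L at 17315006 to 17315105 (plus strand). It was at 2461 and 2416 in the light and 2635 and 2531 in the dark at 18°C, at 1809 and 1792 against 1791 and 2157 at 25°C, and at 958 and 817 against 1247 and 1181 at 29°C. Dark exceeded light without overlap at 18°C and 29°C, and the log2 difference was 0.22 (SE 0.10, 95% interval 0.01 to 0.43; limma, adjusted p = 0.995). Temperature held 91.9% of its variance and phase 4.00%. The other arm of the hairpin, miR-219-5p, did not follow, with a log2 difference of -0.03 (95% interval -0.40 to 0.35).

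miR-283-3p, the rarer arm of a hairpin in an intron of Gmap (chromosome X, 15507956 to 15508055, plus strand), had lower and steadier values. In the light it was at 97.3 and 73.6 (18°C), 110 and 92.9 (25°C) and 89.7 and 74.8 (29°C). In the dark it was at 110 and 116, 121 and 128, and 92.3 and 94.4. Both dark libraries were above both light ones at each temperature, and the reverse held for miR-969-3p. These were the only 2 of 235 rows (0.851%) with such a separation in the same direction at all temperatures. With 2 libraries on each side such separations also arise without a phase difference. How many rows would show this by chance was not computed, so the separation does not set these miRNAs apart. The log2 difference of miR-283-3p was 0.30 (SE 0.13, 95% interval 0.02 to 0.58, limma, adjusted p = 0.995). Its reads ran from 37 in the 29°C ZT21 library to 184. miR-982-5p was at 24.0 to 60.5 in the light and at 37.1 to 79.4 in the dark, with a log2 difference of 0.45 (SE 0.20, 95% interval 0.01 to 0.88, adjusted p = 0.995). It rests on 17 to 121 reads per library, and mir-982 belongs to the marker list for gonads described below.

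The sign of the difference was the same at all 3 temperatures for 30 of the 235 rows (12.8%). Of the 16 miRNAs with the smallest p in either direction 12 were among them, which follows in part from the way they were picked. Signs can also agree at all 3 temperatures without a phase difference. The share expected from that was not computed, so the count does not show a shared difference. The other 11 of these 16 had adjusted p of 0.995. On the lower side were miR-4951-5p (log2 difference -0.26), whose hairpin lies in an exon of the heat-responsive lncRNA Hsromega on the same strand, and miR-92b-3p (-0.21), which restrains the muscle factor Mef2 in flies. miR-92b-3p differed chiefly at 29°C, with 1908 and 2341 in the light and 1394 and 1426 in the dark, while at 18°C all 4 libraries were between 554 and 584. The rarer miR-9383-3p (-0.50), miR-92a-5p (-0.49), miR-310-3p (-0.90) and miR-311-3p (-0.96) had means under 100 reads. On the higher side, miR-277-5p (0.24), the rarer arm of a hairpin that tunes branched-chain amino acid breakdown, was at 3492 and 3453 in the light and 4562 and 6138 in the dark at 29°C, and differed by 0.04 at 18°C. miR-980-5p (0.19), the more abundant arm of a hairpin that restrains memory in flies, was at 287 to 398 in the light and 332 to 458 in the dark. miR-274-3p (0.55) had a mean of 13.1 reads.

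**Figure D3:**
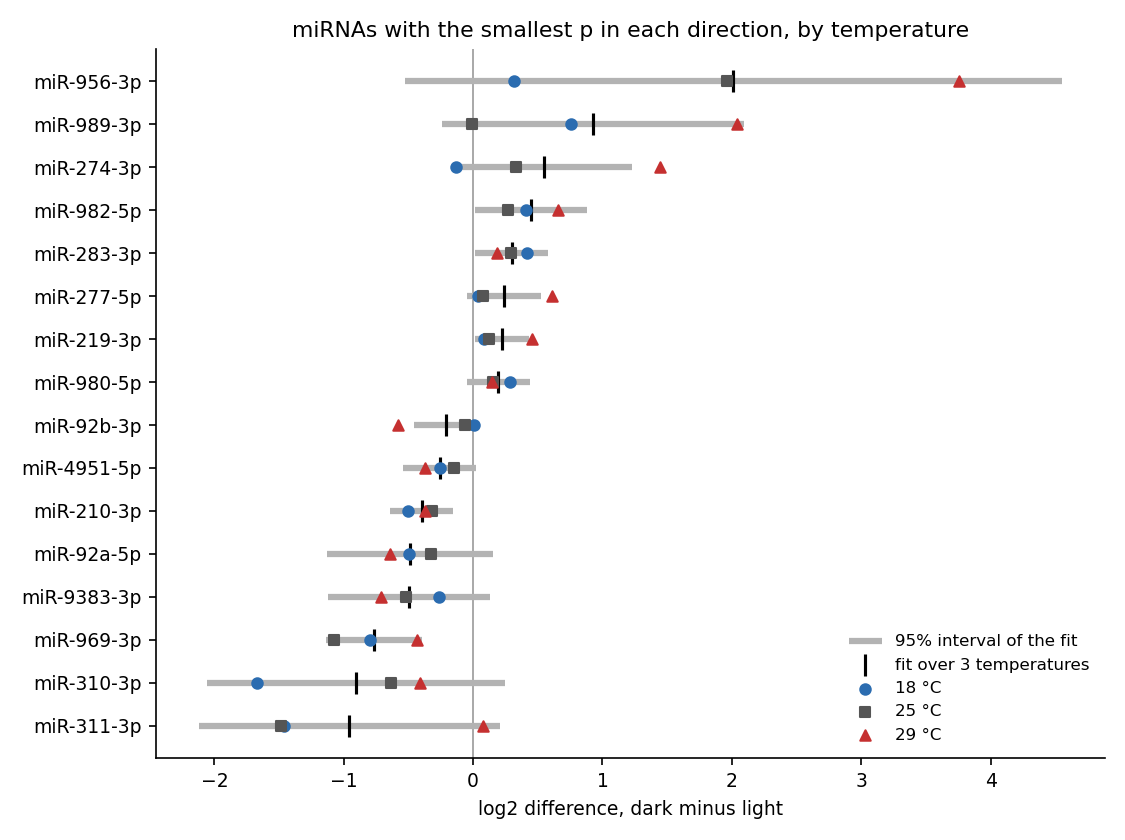
Difference of dark minus light on the log2 scale for the 8 miRNAs with the smallest p in each direction: the limma fit over 3 temperatures (black tick), its 95% interval (grey bar) and the difference within each temperature (coloured symbols, 2 dark against 2 light libraries). All temperatures lie below 0 for miR-969-3p (-1.07 to -0.43) and miR-210-3p (-0.51 to -0.31), and those of miR-956-3p run from 0.32 at 18°C to 3.76 at 29°C.

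The largest difference belonged to miR-956-3p, and it came from libraries that were either high or low. At 18°C it was at 41.1 (ZT3) and 556 (ZT9) in the light and at 37.4 (ZT15) and 948 (ZT21) in the dark. At 25°C it was at 73.5 and 60.2 in the light and at 1043 and 65.3 in the dark, and at 29°C at 83.5 and 100 against 1058 and 1472. Thus 5 libraries were between 556 and 1472 and the other 7 between 37.4 and 100, with 4 of the 5 high ones in the dark. The dark mean was 771 ± 586 and the light mean 152 ± 199 (SD, n = 6 each), a log2 difference of 2.01 (SE 1.11, 95% interval -0.53 to 4.55; limma, adjusted p = 0.995), and only this row exceeded 2-fold. Among the 4 libraries of 29°C alone it was called (log2 difference 3.76, adjusted p = 0.00365), which is a comparison of 2 with 2. Its hairpin lies on chromosome 3L at 11773731 to 11773878, minus strand, and no other gene is annotated there. miR-989-3p, known from the fly ovary where it promotes border cell migration, was at 196 in the 29°C ZT15 library and at 11.2 to 25.95 in the other 11.

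Other miRNAs of gonads and early embryos were uneven between libraries too. The mir-309 cluster on chromosome 2R is transcribed at the start of zygotic development and clears maternal mRNAs. Its member miR-286-3p was at 930 in the 18°C ZT3 library, 954 at 25°C ZT9, 398 at 29°C ZT9 and 899 at 29°C ZT15, and at 50.3 to 156 in the other 8. miR-5-5p was high in the same 4 libraries, at 639, 900, 477 and 603, against 105 to 230. Of these 4 libraries 3 were light, and the log2 differences were -0.88 for miR-286-3p (95% interval -3.17 to 1.41) and -0.70 for miR-5-5p (95% interval -2.17 to 0.76). Over the whole list of gonad and early embryo markers, 40 arms were in the table and 15 were tested. The median log2 difference was -0.56 (all rows 0.01), but members went in opposite directions by hairpin. The 5 higher in the dark were miR-974-5p, miR-975-5p, miR-982-5p, miR-983-5p and miR-984-5p (0.20 to 0.45). The 10 lower (-0.96 to -0.15) were miR-310-3p, miR-311-3p, miR-312-3p, miR-318-3p and rows of the mir-309 cluster. Among the latter, miR-6-3p had rows of mir-6-1 and mir-6-3 with nearly the same values. The summed level of the list was 1260 to 4845 in the dark (median 1861) and 1112 to 6378 in the light (median 3147), and 0 of the 40 arms were at 0 in every library. miR-310-3p, miR-311-3p and miR-982-5p are on this list, and the part of such cells in their differences was not tested.

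**Figure D4:**
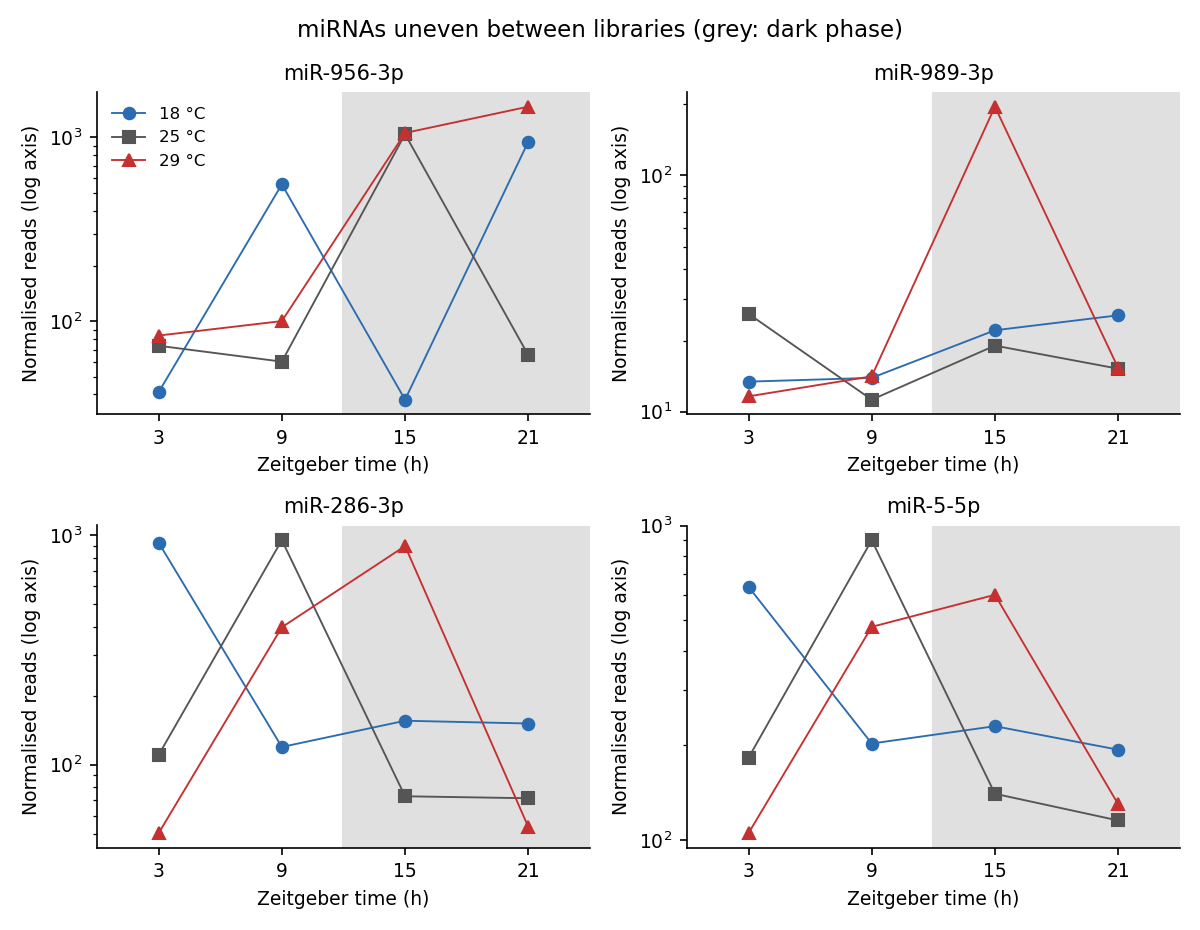
Normalised reads (log axis) of miR-956-3p, miR-989-3p, miR-286-3p and miR-5-5p in every library, against Zeitgeber time in hours, with 1 line per temperature and the dark phase in grey. High and low libraries alternate with no common order over the day: miR-956-3p is high at ZT9 and ZT21 at 18°C and at ZT15 at 25°C, and miR-286-3p is highest at 18°C ZT3, 25°C ZT9 and 29°C ZT15.

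Of the clock list, 14 hairpins with reported roles in rhythms or in timeless, all 27 arms in the table were tested. None was called, and 2 of 27 had an unadjusted p under 0.05 (miR-969-3p and miR-210-3p), against 5 of 235 (2.13%) over all rows. In the dark 10 were higher and 17 lower (126 and 109 over all rows), with a median log2 difference of -0.02 against 0.01 over all rows. The study drew attention to mir-969 from these same libraries, so its place on the list is no independent evidence. Apart from miR-969-3p and miR-210-3p, the more abundant arms had differences between -0.15 and 0.10. miR-276a-3p, which acts on timeless, was the most abundant miRNA of all, at 2690620 to 3142540 in the light and 2022730 to 3153360 in the dark (log2 difference -0.12, 95% interval -0.35 to 0.11). Its low values were the ZT21 libraries of 18°C and 25°C, with 2022730 and 2187370, and without the ZT21 libraries the difference was 0.02. miR-276b-3p, with the same seed, had a difference of -0.15 (95% interval -0.38 to 0.07) and its lowest value, 238195, was also that of the 18°C ZT21 library.

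For bantam-3p, which represses Clock, the dark libraries were close together, from 623021 to 683257, and the light ones ran from 506185 to 731008 (log2 difference 0.09, 95% interval -0.09 to 0.28). let-7-5p, which acts on clockwork orange, was at 93568 to 175525 in the dark and 91293 to 179064 in the light (0.02, 95% interval -0.37 to 0.40, and below 0 with TMM scaling). miR-279-3p, which acts on the JAK/STAT pathway downstream of the clock, differed by 0.10 (95% interval -0.14 to 0.35), and miR-996-5p, from the neighbouring hairpin, by 0.08 (95% interval -0.11 to 0.28). For the rarer arm miR-996-3p the difference was -0.05 (95% interval -0.32 to 0.23). miR-263a-5p and miR-263b-5p, which protect sensory bristles from cell death, were reported to cycle in fly heads. They differed by 0.03 (95% interval -0.24 to 0.30) and -0.15 (95% interval -0.41 to 0.10). miR-124-5p, from the neuronal hairpin, differed by 0.09 (95% interval -0.13 to 0.31). The rarer arm miR-124-3p differed by 0.10 with a wider interval (95% interval -0.36 to 0.57). miR-92a-3p, which alters the excitability of clock neurons, differed by 0.09 on fewer reads (95% interval -0.31 to 0.48). miR-375-3p, and miR-33-5p from an intron of the lipid regulator SREBP, differed by -0.04 and -0.02, both above 0 with total-read scaling. Of the 14 more abundant arms, 13 had intervals within 2-fold and 12 within 1.5-fold.

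The mir-959 to mir-964 cluster, which is known to cycle in the fat body of the head, had few reads. Only miR-963-3p and miR-964-5p of its 12 arms had enough reads, with log2 differences of 0.33 (95% interval -0.53 to 1.19) and 0.18 (95% interval -0.38 to 0.74). All 12 arms together gave 32 to 215 reads per library in the light and 47 to 122 in the dark.

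**Figure D5:**
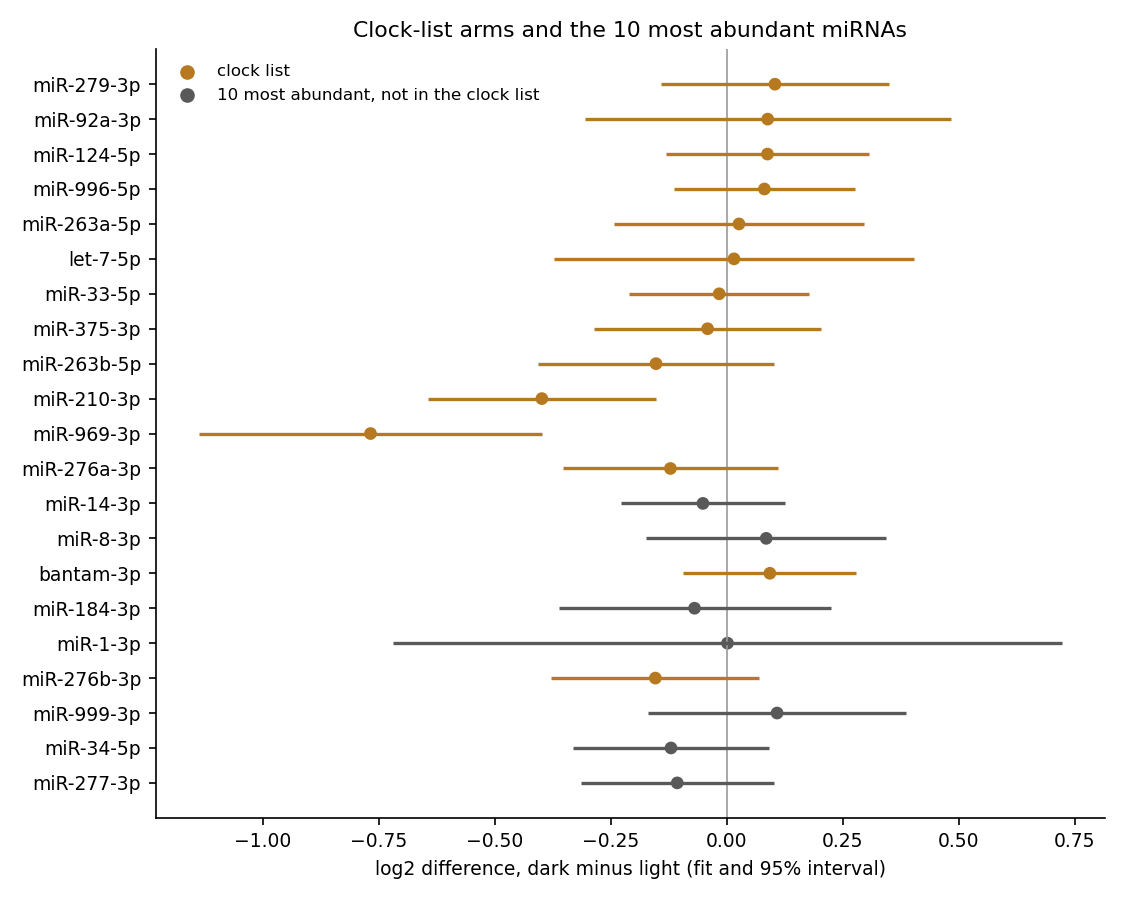
Difference of dark minus light on the log2 scale (point) with its 95% interval (line) from limma, for the more abundant arm of each clock-list hairpin (brown) and for the 10 most abundant miRNAs (grey where not on the clock list). Apart from miR-969-3p and miR-210-3p the intervals cover 0, and that of miR-1-3p, -0.72 to 0.72, is the widest among the 10 most abundant.

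The bulk of the AGO1-bound pool differed little between the phases. The 5 most abundant miRNAs (bantam-3p, miR-8-3p, miR-14-3p, miR-184-3p and miR-276a-3p) held 63.6% ± 1.51 of the reads in the dark and 63.8% ± 1.07 in the light (SD, n = 6 each; exact permutation of phase within temperature, two-sided p = 0.741, smallest possible p 0.00926). miR-14-3p, which restrains cell death and fat storage, differed by -0.05 (95% interval -0.23 to 0.13), miR-8-3p, a regulator of insulin signalling, by 0.09 (95% interval -0.17 to 0.34), and miR-184-3p by -0.07 (95% interval -0.36 to 0.22). miR-34-5p, which delays brain ageing in flies, differed by -0.12 (95% interval -0.33 to 0.09), miR-277-3p by -0.11 (95% interval -0.31 to 0.10) and miR-999-3p by 0.11 (95% interval -0.17 to 0.39). All 10 of the most abundant had intervals within 2-fold.

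miR-1-3p, the muscle miRNA, was the exception in spread. At 18°C it was at 178464 and 259796 in the light and at 472985 and 432939 in the dark, and at 25°C at 653404 and 464682 in the light and at 405337 and 236149 in the dark. Within temperatures the difference was 1.07 (18°C), -0.83 (25°C) and -0.23 (29°C), which average to 0.00 in the fit (95% interval -0.72 to 0.72, and below 0 with TMM scaling). For miR-133-3p, also a muscle miRNA, the differences were -0.36 (18°C), 0.01 (25°C) and -0.12 (29°C). At 18°C it was at 17466 and 17549 in the light and at 14007 and 13239 in the dark, and at 25°C at 13258 and 18487 against 13203 and 18903 (log2 difference over all temperatures -0.16). The share of reads in miR-1 and miR-133 together, most of it miR-1-3p, was at 2.48% to 4.72% in the dark and 1.89% to 5.68% in the light (means 3.81% ± 1.01 and 3.82% ± 1.36, SD, n = 6; exact permutation, two-sided p = 0.991). In such bulk samples fewer cells of a type and less RNA per cell cannot be told apart.

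The other lists had at most 1 arm each at an unadjusted p under 0.05, where all rows had 5 of 235 (2.13%). Of 14 arms of hairpins with eye and sensory roles 1 had an unadjusted p under 0.05 (miR-210-3p), of 20 neural arms 1 (miR-219-3p), of 14 arms in metabolism 0, of 22 in growth and survival 0, of 6 of the let-7 complex 0 and of 19 mirtron arms 0, each with 0 calls. Their median log2 differences were -0.02, -0.02, 0.03, 0.04, -0.04 and 0.01, beside 0.01 over all rows. Among the miRNAs for which the study predicted sites in timeless mRNAs, 72 were tested, 0 were called and 1 had an unadjusted p under 0.05 (miR-969-3p), with 34 higher and 38 lower in the dark and a median of -0.02. The 2 arms of mir-124, the neuronal marker, summed to 817 to 1453 in the dark and 808 to 1161 in the light.

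More rows had non-overlapping phases at 18°C than at the warmer temperatures. At 18°C both dark libraries lay above both light ones for 70 rows (29.8%) and below them for 56 (23.8%). At 25°C this was so for 40 (17.0%) and 36 (15.3%), and at 29°C for 31 (13.2%) and 36 (15.3%). With 2 libraries on each side such separations also arise often without a phase difference, so these are not counts of miRNAs that differed. The median absolute log2 difference between phases was 0.26, 0.17 and 0.19 in order of temperature. Within a phase, ZT21 differed from ZT15 by a median of 0.18, 0.32 and 0.39, and ZT9 from ZT3 by 0.21, 0.26 and 0.22. The first is a difference between means of 2 libraries and the others are between single libraries, so their sizes cannot be set against each other directly. At 18°C miR-210-5p was at 24490 and 25930 in the light and 15117 and 11590 in the dark. The rarer arms there held 5.78% and 6.83% of the reads in the light and 4.86% and 4.88% in the dark. At 25°C and 29°C their share was not lower in the dark. It was 3.34% and 3.55% in the light against 3.39% and 4.85% in the dark at 25°C. At 29°C it was 2.49% and 3.14% against 2.90% and 5.10%.

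Whether a dark and light difference changed with temperature was tested as the interaction of phase with temperature. In limma 0 of 235 rows were called (0.0%) and 12 had an unadjusted p under 0.05 (5.11%), and in edgeR 0 were called and 16 had an unadjusted p under 0.05 (6.81%). The smallest p was that of miR-1-3p (adjusted p = 0.686). The count at an unadjusted p depended on single libraries: leaving out ZT15 of 29°C gave 51 (21.8%) and leaving out ZT15 of 25°C gave 26 (11.1%), with 0 called in both. Without the 29°C ZT21 library, the shallowest, miR-989-3p alone was called, which left its high 29°C ZT15 value as the only dark one of its temperature.

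No arm ratio passed the threshold between the phases. For 89 hairpins whose arms each averaged 10 reads or more, 0 log2 ratios of 5p to 3p reads were called in limma (0.0%) and 5 had an unadjusted p under 0.05 (5.62%), all with an adjusted p of 0.757. These were mir-283 (ratio difference -0.31), mir-277 (0.35), mir-969 (0.67), mir-92a (-0.58) and mir-133 (0.27). The ratio of mir-969, whose 3p and 5p arms differed by -0.77 and -0.09, was -4.23 and -5.21 in the light and -4.01 and -3.70 in the dark at 18°C, and differed by 0.87, 1.10 and 0.06 in order of temperature. mir-133, a muscle hairpin, differed by 0.27, 0.26 and 0.27 at the 3 temperatures, the steadiest of the 5. Over all 89 hairpins the rarer arm had the higher share in the dark in 52, and all rarer arms together held 4.33% ± 0.934 of the reads in the dark and 4.19% ± 1.71 in the light (SD, n = 6; exact permutation, two-sided p = 0.824).

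Reads assigned to miRNAs ran from 4423511 to 16840372 in the dark and from 7612981 to 14424841 in the light. In a principal component analysis of the 235 rows, the first component held 40.6% of the variance and the second 19.5%, and dark and light libraries overlapped on both.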

How the data were processed

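AGO1-bound small RNA of 12 libraries was analysed. The authors assigned reads to mature miRNAs of miRBase 21 with miRExpress (version not given in the sources used here). The deposited values are a signal, reads divided by 1 size factor per library, and 100% of 4896 values came out as whole reads within 0.01. Of 408 rows, 5 with the same reads as another row in every library were left out, except from the arm ratios. There mir-276a and mir-276b shared 1 row of 5p reads, and mir-13b-1 and mir-13b-2 shared 1 row of 3p reads. Reads of near-identical miRNAs cannot be assigned to 1 hairpin.

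Rows passing filterByExpr on the recovered reads were tested with limma 3.58.1 (R 4.3.3; trend and robust) on log2(value + 1), a pseudocount of 1 that understates changes of rare miRNAs, with temperature and phase as terms and Benjamini-Hochberg adjustment over all rows tested. Alternatives were edgeR 4.0.16, DESeq2 1.42.0 (the authors' tool), other scalings, filters and pseudocounts, blocks of libraries 12 h apart, and left-out libraries, time points and temperatures. Arm ratios were log2((5p reads + 0.5)/(3p reads + 0.5)). Shares were tested by exact permutation of phase within temperature (216 arrangements). Scripts were tested on simulated data.

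Named were the 8 miRNAs with the smallest p in each direction, the more abundant arm of each clock-list hairpin, the 10 miRNAs with most reads and the 5 hairpins with the smallest arm ratio p. The other arms of mir-969, mir-210, mir-219, mir-124 and mir-996 and miRNAs of the marker lists were added after their values were seen. Members and lists were chosen with earlier results of these data known. Positions come from the Ensembl annotation of BDGP6.54, matched by name. The build behind the table is not given in the sources used here. Sequences were not used here.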

Additional observations from a re-analysis of the deposited data

Results flagged for a closer look

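In 6 of 80 groups of 6 dark or 6 light libraries, 1 library lay far from the other 5 by Dixon's criterion, which chance meets in about 1 of 20 groups. In the dark, miR-989-3p was at 196 in the 29°C ZT15 library against 15.2 to 25.6 in the others, miR-310-3p was at 44.4 in the same library against 2.55 to 17.1, and miR-9383-3p was at 53.6 in the 29°C ZT21 library against 15.4 to 28.9. In the light, miR-956-3p was at 556 in the 18°C ZT9 library against 41.1 to 100, miR-989-3p was at 25.95 in the 25°C ZT3 library against 11.2 to 14.1, and miR-980-5p was at 287 in the 18°C ZT3 library against 357 to 398.

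For 4 of the 37 miRNAs named, the only ones searched for this, the 2 dark libraries lay wholly above the 2 light ones at 1 temperature and wholly below them at another. These were miR-1-3p, with log2 differences of dark minus light of 1.07 at 18°C and -0.83 at 25°C, miR-375-3p, with 0.22 (18°C), -0.25 (25°C) and -0.10 (29°C), miR-276a-3p, with -0.27 (25°C) and 0.0744 (29°C), and bantam-3p, with 0.16 (18°C), -0.0664 (25°C) and 0.19 (29°C). In the test of phase by temperature their adjusted p in limma were 0.686, 0.705, 0.784 and 0.784. With 2 libraries on each side such reversals also arise without a phase difference. Neither their share over all rows nor the share expected by chance was computed, so the count does not set these miRNAs apart.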

How the results depend on the processing

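Of 33 settings, 29 called 0 miRNAs between dark and light and 4 called 1: miR-969-3p with TMM scaling (log2 difference -0.79) and DESeq2 (-0.79), miR-210-5p without the ZT21 libraries (-0.67) and miR-956-3p with only the 29°C libraries (3.76). At an unadjusted p under 0.05 the main fit had 5 of 235 rows (2.13%). There were 13 of 403 without a filter, 3 of 235 with TMM scaling, 2 of 235 without temperature as covariate and 3 of 235 with blocks 12 h apart. There were 9 of 246 without the ZT3 libraries, 9 of 240 without ZT15 and 12 of 244 without ZT21. With only 18°C there were 38 of 238, and with only 29°C 9 of 227. Leaving out 1 library gave 0 calls each time and 2 to 9 rows at an unadjusted p, and 0 to 1 calls for phase by temperature (1 without the 29°C ZT21 library). Arm ratios gave 0 calls under every alternative. The labels give no replicate numbers, so the only blocks fitted were pairs of libraries 12 h apart at the same temperature.

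The difference in the share of the 5 most abundant miRNAs went from -0.249 to 0.418 without ZT3 and 0.546 without ZT21 (-0.663 to 0.165 without 1 library), that of the rarer arms from 0.142 to -0.175 and -0.470 (-0.224 to 0.508), and that of miR-1 and miR-133 from -0.00366 to 0.116 and 0.507 (-0.376 to 0.369).

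Of the 37 miRNAs named, 23 took the other sign in at least 1 setting other than a left-out library, in 0 cases with a call. With TMM scaling these were let-7-5p (-0.00494) and miR-1-3p (-0.0189), and with total-read scaling miR-375-3p (0.00707) and miR-33-5p (0.0321). Without ZT3 they were miR-33-5p (0.0385), miR-184-3p (0.0436), miR-999-3p (-0.00938) and miR-969-5p (0.0887). Without ZT9 they were let-7-5p (-0.159), miR-1-3p (-0.0165) and miR-8-3p (-0.0369). Without ZT15 they were let-7-5p (-0.243), miR-1-3p (-0.311), miR-8-3p (-0.00464) and miR-263a-5p (-0.156). Without ZT21 they were miR-375-3p (0.0715), miR-184-3p (0.135), miR-969-5p (0.161) and miR-276a-3p (0.0217). Without 18°C they were let-7-5p (-0.181), miR-1-3p (-0.533), miR-263a-5p (-0.103), miR-279-3p (-0.0093) and miR-14-3p (0.0218), without 25°C miR-375-3p (0.0613) and miR-92a-3p (-0.171), and without 29°C miR-33-5p (0.0355) and miR-969-5p (0.0513).

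With only 18°C the sign turned for miR-375-3p (0.22), miR-184-3p (0.0284), miR-969-5p (0.0767), miR-92a-3p (-0.25), miR-92b-3p (0.0067), miR-274-3p (-0.135) and miR-263b-5p (0.00994). With only 25°C it turned for let-7-5p (-0.251), miR-1-3p (-0.833), miR-33-5p (0.106), miR-969-5p (0.0258), miR-263a-5p (-0.249), miR-279-3p (-0.193), miR-989-3p (-0.0117), bantam-3p (-0.0664) and miR-996-5p (-0.0902). With only 29°C it turned for let-7-5p (-0.111), miR-1-3p (-0.233), miR-999-3p (-0.0708), miR-8-3p (-0.0199), miR-276a-3p (0.0744), miR-210-5p (0.119), miR-14-3p (0.0848), miR-92a-3p (-0.0932), miR-311-3p (0.0776), miR-124-5p (-0.0242) and miR-34-5p (0.087).

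Without 1 library at a time the values ran from -0.0406 to 0.125 for miR-263a-5p, -0.20 to 0.204 for miR-1-3p, -0.00908 to 0.179 for miR-999-3p, -0.0899 to 0.162 for let-7-5p, -0.0463 to 0.0337 for miR-33-5p, -0.029 to 0.201 for miR-92a-3p, -0.157 to 0.0151 for miR-184-3p, -0.109 to 0.0321 for miR-375-3p and -0.186 to 0.0704 for miR-969-5p. The cause of these changes was not tested.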
